A study of Homo sapiens with 24 samples.

Results

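Epigallocatechin gallate (EGCG), the major polyphenol of green tea, was given alone to 686Tu (MDA686TU) cells, an established line of squamous carcinoma of the head and neck, and its effect on the transcriptome was compared with untreated cells of the same line. The comparison used 12 of the 24 libraries of the experiment, 6 from cells treated with 40 µM EGCG for 24 h and 6 from untreated control cells, and it covered all 15476 genes of the 60617 in the count table that were expressed well enough to be tested. The other 12 libraries, from cells given 15 µM resveratrol or both agents at these doses for 24 h, were used to estimate the spread between libraries and to follow the same genes beside resveratrol. EGCG was dissolved in water, whereas resveratrol came from a stock in DMSO. The 24 libraries come from 1 established line, the labels number the 6 libraries of a group without naming separate cultures, and p-values therefore measure only the spread between these libraries.

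Cells sense oxygen through prolyl hydroxylases that need oxygen, iron and 2-oxoglutarate. When these enzymes are inactive, hypoxia-inducible factor (HIF) is not degraded, binds the hypoxia response element and activates genes for glucose use, pH control, collagen hydroxylation and mitophagy. Selenoproteins carry the amino acid selenocysteine, which is inserted at a UGA codon, and the mRNAs of some members are lost when selenium is short while those of others persist. EGCG carries a pyrogallol ring and a gallate ester and is known to bind metal ions and to oxidize in culture medium with release of hydrogen peroxide. Gene lists for these and other processes were described beside the genes with the strongest changes. They were chosen with earlier results of these data known, so they are not a test of this background.

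Total counts were 8542934 to 9737422 per library in the control and 7034872 to 11735574 with EGCG. They did not differ between the groups beyond the spread of the libraries (two-sided exact permutation test, p = 0.883). The share of mitochondrial transcripts was 0.249% to 0.279% in control replicates 1 to 3 and 0.251% to 0.264% in EGCG replicates 1 to 3. In replicates 4 to 6 it was 0.491% to 0.759% in the control and 0.448% to 0.627% with EGCG. No batch is named in the labels or methods, and the division into replicates 1 to 3 and 4 to 6, called replicate sets here, entered the fit as a term. Keratinocyte markers were abundant in every library, with 45967 and 44895 mean normalized counts of KRT5 in the control and with EGCG, and TP63 and EPCAM were also present in all 12. Of 16 markers of blood, endothelial, stromal and pigment cells, CD3E and MS4A1 were at 0 in all 12 libraries, PTPRC did not exceed 1.29 normalized counts in any library, and only COL1A1, COL1A2 and VWF were expressed well enough to be tested.

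Differentially expressed genes (DEGs) were those that passed an adjusted p of 0.1 (Benjamini-Hochberg) together with an unadjusted p of 0.05 when the raw counts were tested by edgeR's quasi-likelihood method. EGCG gave 342 DEGs, 172 upregulated and 170 downregulated, which was 2.21% of the tested genes (1.11% upregulated and 1.10% downregulated). The changes were small. Among the DEGs the median size of the change was 0.20 on the log2 scale, and 29 DEGs (0.187%) changed at least 1.5-fold, 14 upregulated and 15 downregulated. The median log2 fold change over all tested genes was 0.00. An unadjusted p under 0.05 was reached by 1743 genes (11.3%). For 245 genes (1.58%) the EGCG and control libraries did not overlap, with all 6 of one group above all 6 of the other. Of the DEGs, 306 were protein-coding and 14 were long noncoding RNAs, and the others were mostly pseudogenes, some of them close copies of genes that changed.

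**Figure D1:**
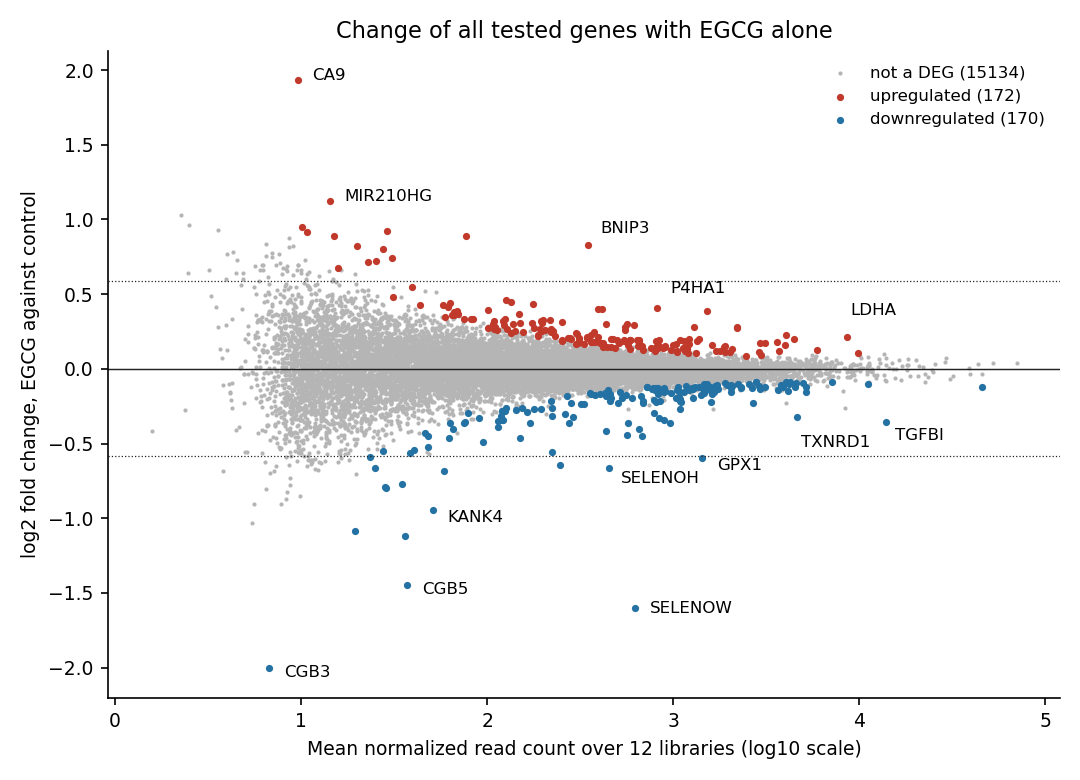
Log2 fold change of each of 15476 tested genes with EGCG against the control (vertical axis) by the mean normalized read count over the 12 libraries (horizontal axis, log10 scale). Red points are the 172 upregulated and blue points the 170 downregulated DEGs, dotted lines mark 1.5-fold, and most DEGs lie between these lines, with CA9 and MIR210HG highest and CGB3, SELENOW and CGB5 lowest among the DEGs.

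Genes known to be induced by hypoxia rose in greater number than those of any other list. Of 38 tested genes on the list of hypoxia-inducible genes outside glycolysis, 14 rose and 0 fell, and 37 of 38 had a fold change above 0. Of all tested genes, 1.11% were upregulated and 1.10% downregulated, shares that also stand beside the counts of the lists below. The median log2 fold change was 0.14, beside 0.00 for all tested genes, and 12 members had groups of libraries that did not overlap. This list was chosen with earlier results of these data known, so its counts are not independent evidence of the direction. BNIP3, BNIP3L, NDRG1 and P4HA1 on it are also genes that the study singled out from these libraries. The bases upstream of the start of members that rose are shown because they hold the core of the hypoxia response element, ACGTG or GCGTG, read on either strand and printed in capitals, where overlapping matches share letters. They are from RefSeq (GRCh38.p14), on the strand of the gene, and end just before the annotated start.
BNIP3: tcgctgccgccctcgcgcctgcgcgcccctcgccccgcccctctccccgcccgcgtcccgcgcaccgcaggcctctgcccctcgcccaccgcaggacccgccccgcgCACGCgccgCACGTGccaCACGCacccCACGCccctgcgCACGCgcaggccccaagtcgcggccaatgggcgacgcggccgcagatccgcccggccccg
DDIT4: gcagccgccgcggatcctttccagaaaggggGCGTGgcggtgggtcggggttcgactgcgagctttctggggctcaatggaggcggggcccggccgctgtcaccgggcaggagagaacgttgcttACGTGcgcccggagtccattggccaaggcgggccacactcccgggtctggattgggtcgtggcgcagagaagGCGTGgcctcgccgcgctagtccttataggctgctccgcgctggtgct
STC2: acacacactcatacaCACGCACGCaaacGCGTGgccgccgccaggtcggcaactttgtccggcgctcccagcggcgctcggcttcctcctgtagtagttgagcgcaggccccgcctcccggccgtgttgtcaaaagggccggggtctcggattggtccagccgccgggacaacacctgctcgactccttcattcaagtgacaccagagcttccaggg
CA9: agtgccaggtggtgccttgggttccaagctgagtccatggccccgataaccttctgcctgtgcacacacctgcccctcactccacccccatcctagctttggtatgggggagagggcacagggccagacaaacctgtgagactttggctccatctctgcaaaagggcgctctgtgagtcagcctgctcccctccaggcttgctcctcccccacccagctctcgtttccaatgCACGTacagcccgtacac
The BNIP3 stretch (chr10:131981968-131982173, minus strand) held 6 matches, 2 of them from the palindrome CACGTG, which reads alike on both strands. DDIT4 (chr10:72273674-72273918, plus strand) and STC2 (chr5:173328448-173328664, minus strand) held 3 each, and CA9 (chr9:35673678-35673927, plus strand) held 1, whose first base is the 18th before the start. In windows of 250 bases before the start, 25 of the 29 listed and tested genes with a sequence (86.2%) held at least 1 core, and 9 of 10 among those that rose. The core is common, since 43.1% of all 27305 RefSeq promoters and 57.7% of those of tested genes held it, as did 63.4% of the promoters of all upregulated and 61.3% of those of all downregulated DEGs. On the glycolysis list described below, 58.6% of the promoters of tested genes held it, and 5 of 9 among those that rose. On the metallothionein and zinc transport list, also below, 6 of 6 promoters of tested genes held it.

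BNIP3 (ENSG00000176171, chromosome 10, 131967684 to 131981967 on GRCh38) encodes a mitochondrial membrane protein that drives mitophagy, and among upregulated genes it had the smallest p. Its normalized counts were 248 to 256 (median 250.5) in the 6 control libraries and 403 to 484 (median 442) with EGCG. The 2 ranges were far apart (log2 fold change 0.83, SE 0.053, adjusted p = 5.2e-15). BNIP3P1, a processed pseudogene of BNIP3, rose to the same degree (log2 fold change 0.89, SE 0.11, adjusted p = 3.3e-07), and since the treatment of reads that match both is not given in the sources used here, the sum of the pair is also given, 299 to 314 in the control and 486 to 625 with EGCG. BNIP3L, a paralog with the same role, had 324 to 350.5 (median 343) normalized counts in the control and 420.3 to 492 (median 437) with EGCG, again without overlap (log2 fold change 0.40, SE 0.062, adjusted p = 4.4e-05).

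CA9 (ENSG00000107159, chromosome 9, 35673928 to 35681159), a membrane carbonic anhydrase of pH control and a classic HIF target, had the largest fold change of all DEGs upward, from very few reads. It had 2.85 to 5.53 (median 3.91) normalized counts in the control and 11.8 to 18.0 (median 15.0) with EGCG. Every EGCG library was above every control library (log2 fold change 1.93, SE 0.29, adjusted p = 2e-05). The host gene of miR-210, MIR210HG, rose, with 5.53 to 12.6 (median 9.25) normalized counts in the control and 12.9 to 24.0 (median 20.7) with EGCG (log2 fold change 1.12, SE 0.24, adjusted p = 0.0045), and its groups were also apart. P4HA1, the catalytic subunit of collagen prolyl 4-hydroxylase, had 676 to 748 (median 695) normalized counts in the control and 878 to 982 (median 934) with EGCG (log2 fold change 0.41, SE 0.035, adjusted p = 2.2e-11). The related P4HA2 rose less (log2 fold change 0.18, SE 0.048, adjusted p = 0.045) and the collagen lysyl hydroxylase PLOD1 less still (log2 fold change 0.11, SE 0.033, adjusted p = 0.077), and these 2 genes had overlapping groups.

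NDRG1, a stress-responsive gene of differentiation, lay between 1261 and 1362 normalized counts in the control and between 1669.7 and 1779 with EGCG (log2 fold change 0.39, SE 0.036, adjusted p = 1.6e-10). DDIT4, an inhibitor of mTORC1, had 1898 to 2069 (median 1993) and 2229.7 to 2555 (median 2449) (log2 fold change 0.28, SE 0.029, adjusted p = 5.9e-09). STC2, a secreted glycoprotein hormone, had 4033 to 4252 (median 4194) and 4600.2 to 4903 (median 4777) (log2 fold change 0.20, SE 0.024, adjusted p = 1.8e-07). All 3 of these abundant genes had groups that did not overlap, although none rose by as much as 1.5-fold. VLDLR, a lipoprotein receptor, rose as well (log2 fold change 0.37, SE 0.073, adjusted p = 0.0020), and so did ERO1A, an oxidase of disulfide formation (log2 fold change 0.15, SE 0.042, adjusted p = 0.045), and ZNF395 (log2 fold change 0.19, SE 0.056, adjusted p = 0.084). VEGFA, the angiogenic ligand, had 1068 to 1209.9 (median 1137) normalized counts in the control and 1168 to 1329 (median 1239.7) with EGCG, so the groups overlapped around a small rise (log2 fold change 0.14, SE 0.034, adjusted p = 0.022). In 12 fits that each left out 1 library, VEGFA lost its call in 1 of 12 (log2 fold change 0.11 to 0.16), P4HA2 in 2 of 12 (0.15 to 0.19), ERO1A in 4 of 12 (0.13 to 0.17), ZNF395 in 7 of 12 (0.15 to 0.22) and PLOD1 in 8 of 12 (0.10 to 0.13).

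The remaining 24 tested members of the list did not pass the test. Among them were ANGPTL4 (log2 fold change 0.22), KDM3A (0.13), ADM (0.07) and HILPDA (0.04), all HIF targets in many cells. Of the 9 tested genes of oxygen sensing itself, EPAS1, which encodes HIF-2α, rose (log2 fold change 0.16, SE 0.037, adjusted p = 0.011). HIF1A had a log2 fold change of -0.06 (adjusted p = 0.39), and the hydroxylase genes EGLN1 and EGLN3, HIF targets as well as regulators, had 0.31 (adjusted p = 0.11) and -0.01 (adjusted p = 0.99).

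Genes of glucose uptake and glycolysis moved in the same direction but by less. Of 31 tested members of the list, 9 rose and 0 fell, and 26 of 31 were above 0 (median 0.08 on the log2 scale). PDK1, a pyruvate dehydrogenase kinase, changed most, with 137 to 161 (median 152) normalized counts in the control and 194 to 213 (median 199) with EGCG (log2 fold change 0.43, SE 0.064, adjusted p = 1.5e-05). LDHA, lactate dehydrogenase A, had the most reads of the 9, with 7731 to 8088 (median 7981) in the control and 8994 to 9516 (median 9144) with EGCG (log2 fold change 0.21, SE 0.024, adjusted p = 4.8e-08). PGK1 had 3486 to 3974 (median 3684) and 4177 to 4533 (median 4385) (log2 fold change 0.23, SE 0.028, adjusted p = 1.8e-07), and reads of its copies may be divided between them. None of these 3 genes had overlapping groups.
The glucose transporter SLC2A1 (0.18, adjusted p = 0.00096), GPI (0.17, adjusted p = 0.00031), ALDOC (0.24, adjusted p = 0.013), PGAM1 (0.13, adjusted p = 0.0046), ENO2 (0.31, adjusted p = 0.0072) and PGM1 (0.32, adjusted p = 0.0017) were the other 6 that rose, each value being the log2 fold change. The hexokinases and phosphofructokinases did not pass the test, with 0.11 for HK2 and 0.07 for PFKL, nor did ALDOA (0.14) or GAPDH (0.07).

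**Figure D2:**
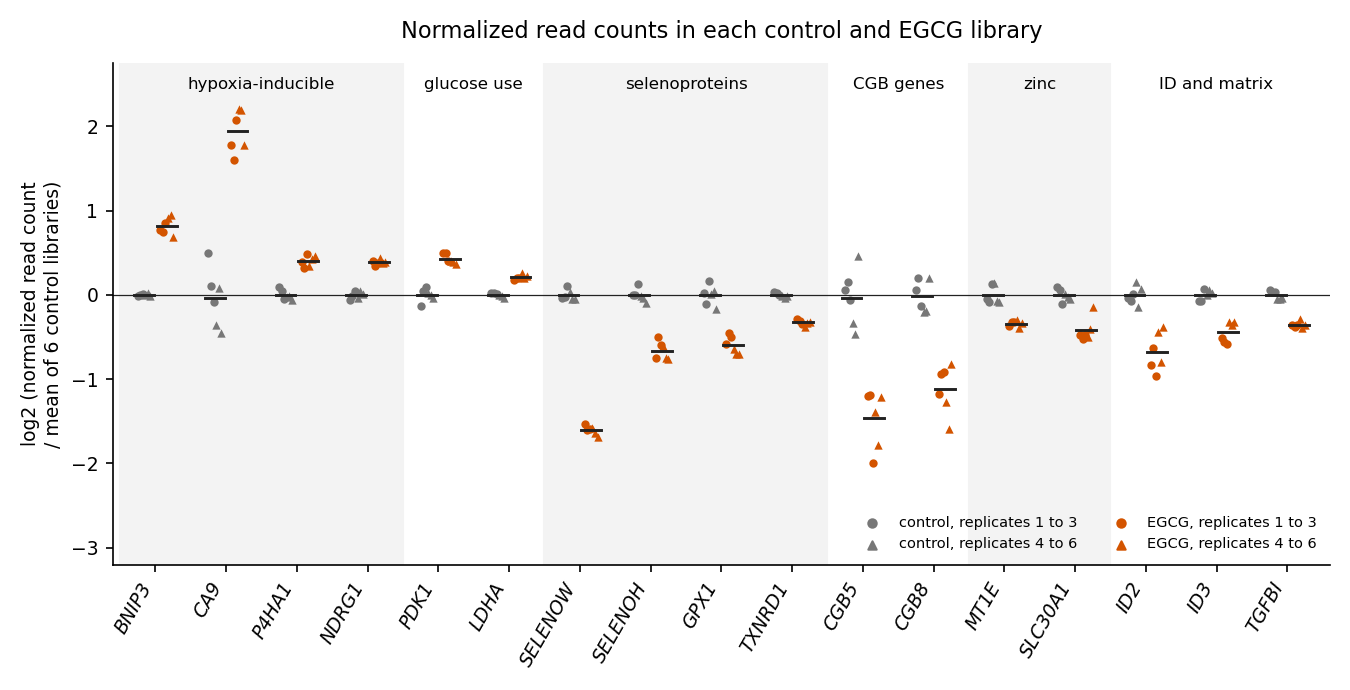
Normalized read counts of 17 genes in each of 6 control (grey) and 6 EGCG (orange) libraries, as log2 of the ratio to the mean of the control libraries, with circles for replicates 1 to 3, triangles for replicates 4 to 6 and bars at the group means. The EGCG libraries of BNIP3, CA9, P4HA1, NDRG1, PDK1 and LDHA lie above all control libraries and those of the other 11 genes lie below.

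Selenoproteins split. Of 18 tested members, 7 fell, 2 rose and 9 did not pass the test, and the median log2 fold change was -0.05. SELENOW, SELENOH, GPX1 and SELENOO are genes that the study names from these libraries. SELENOW (ENSG00000178980, chromosome 19, 47778677 to 47784686), a small thioredoxin-like selenoprotein, had the smallest p of all tested genes, with 905 to 1009.7 (median 916) normalized counts in the control and 289.7 to 324 (median 309) with EGCG. The highest EGCG library held less than the lowest control library by a wide margin (log2 fold change -1.60, SE 0.042, adjusted p = 1.5e-29), and the log2 fold change was alike in replicates 1 to 3 (-1.59) and 4 to 6 (-1.62). SELENOH (ENSG00000211450, chromosome 11, 57741491 to 57743554), a nucleolar selenoprotein, fell, with 519 to 606 (median 553) normalized counts in the control and 326 to 394 (median 347) with EGCG (log2 fold change -0.66, SE 0.050, adjusted p = 3.7e-13).

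GPX1 (ENSG00000233276, chromosome 3, 49357174 to 49358605), the cytosolic glutathione peroxidase, had 1531 to 1941 (median 1744) normalized counts in the control and 1062 to 1256 (median 1129) with EGCG, without overlap (log2 fold change -0.59, SE 0.039, adjusted p = 9.5e-15). Its pseudogene GPX1P1 fell alike (log2 fold change -0.56, SE 0.076, adjusted p = 3.4e-06), and the sum of the pair was 1762 to 2237 in the control and 1217 to 1470.0 with EGCG. TXNRD1 (ENSG00000198431, chromosome 12, 104215779 to 104350307), the cytosolic thioredoxin reductase, fell, with 4985 to 5268 (median 5121) normalized counts in the control and 3954 to 4226 (median 4090.4) with EGCG (log2 fold change -0.32, SE 0.024, adjusted p = 2.9e-13), with closely grouped libraries on both sides. SELENOT, of the endoplasmic reticulum, fell as well (log2 fold change -0.22, SE 0.048, adjusted p = 0.0062), as did a pseudogene of it, SELENOTP1. GPX4, which reduces lipid peroxides in membranes, fell less and with overlapping groups, 1056 to 1305 (median 1165) in the control and 924 to 1091 (median 1002) with EGCG (log2 fold change -0.22, SE 0.042, adjusted p = 0.0014). SELENON was the weakest of the 7 (log2 fold change -0.17, SE 0.052, adjusted p = 0.090), and the call was lost in 8 of 12 fits that left out 1 library, in which its log2 fold change was -0.21 to -0.12.

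The 2 selenoproteins that rose were SEPHS2, the selenophosphate synthetase that supplies selenium for selenocysteine, and SELENOO, a mitochondrial pseudokinase. SEPHS2 had 526 to 576 (median 557) normalized counts in the control and 653 to 712 (median 672) with EGCG, without overlap (log2 fold change 0.29, SE 0.042, adjusted p = 1e-05). SELENOO rose, with 166 to 197 (median 175) normalized counts in the control and 187 to 247 (median 222) with EGCG, with overlapping groups (log2 fold change 0.33, SE 0.066, adjusted p = 0.0024). The mitochondrial and testis thioredoxin reductases TXNRD2 (-0.05) and TXNRD3 (-0.03), GPX2 (0.11) and the endoplasmic reticulum members SELENOF (-0.04), SELENOK (0.08) and SELENOS (-0.03) had log2 fold changes that did not pass. Among 12 genes of the selenocysteine machinery, 1 fell, NCL, which encodes nucleolin (log2 fold change -0.10, SE 0.025, adjusted p = 0.019, lost in 1 of 12 fits that left out 1 library), and the median was -0.02. No member of the list of 14 tested peroxide and superoxide enzymes without selenium passed the test in either direction in edgeR, with 2 at an unadjusted p under 0.05 and 0 called by DESeq2 (median 0.03, range -0.03 to 0.11).

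The genes of the chorionic gonadotropin beta chain, a placental hormone subunit that many carcinomas express out of place, fell together. All 5 tested members were downregulated and non-overlapping between groups, at a median log2 fold change of -1.12. CGB5 and CGB8 were named by the study from these libraries. CGB8 had 42.8 to 57.0 (median 48.4) normalized counts in the control and 16.5 to 28.1 (median 23.9) with EGCG (log2 fold change -1.12, SE 0.13, adjusted p = 1.7e-07), CGB7 had 26.3 to 54.1 (median 33.2) and 15.1 to 26.2 (median 20.6) (log2 fold change -0.79, SE 0.17, adjusted p = 0.0051), and CGB2 had 19.6 to 40.8 (median 22.5) and 9.73 to 15.1 (median 12.3) (log2 fold change -1.09, SE 0.21, adjusted p = 0.0011). CGB3 showed the largest fold decrease of all DEGs from the fewest reads, 4.12 to 17.1 (median 11.7) in the control and 1.94 to 3.74 (median 2.48) with EGCG (log2 fold change -2.01, SE 0.36, adjusted p = 0.00053). These genes lie side by side on chromosome 19 and are nearly identical, so reads may be divided among them and the 5 results are not independent. Summed over the 6 genes of the family with counts, including CGB1, the control libraries held 144 to 244 normalized counts and the EGCG libraries 64.4 to 92.9, and the log2 ratio of the means was -1.15. CGA, which encodes the partner alpha chain, was not expressed well enough to be tested.

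Zinc-responsive genes were lower with EGCG. Of 10 tested metallothionein and zinc transport genes, 4 fell, MT1E, MT1X, MT2A and SLC30A1, and 1 rose, SLC39A10, and the median log2 fold change was -0.29. Metallothioneins are small proteins that bind zinc and copper, SLC30A1 exports zinc from the cell, and both are induced through the metal response element when zinc is plentiful, whereas SLC39A10 imports zinc. The upstream bases of 3 of the 4 genes that fell are shown with this element, TGCACNC or TGCGCNC on either strand, in capitals. MT1E had no entry in the promoter table.
MT2A: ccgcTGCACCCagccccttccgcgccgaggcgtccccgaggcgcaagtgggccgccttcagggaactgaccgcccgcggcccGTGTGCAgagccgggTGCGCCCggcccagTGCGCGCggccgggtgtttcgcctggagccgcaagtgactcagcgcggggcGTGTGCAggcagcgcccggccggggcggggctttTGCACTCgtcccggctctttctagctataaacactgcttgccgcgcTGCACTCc
MT1X: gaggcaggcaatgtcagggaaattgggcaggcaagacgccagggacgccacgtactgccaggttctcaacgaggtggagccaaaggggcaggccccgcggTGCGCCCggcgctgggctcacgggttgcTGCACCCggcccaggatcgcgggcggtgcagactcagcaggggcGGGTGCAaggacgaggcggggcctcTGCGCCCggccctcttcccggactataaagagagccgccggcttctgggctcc
SLC30A1: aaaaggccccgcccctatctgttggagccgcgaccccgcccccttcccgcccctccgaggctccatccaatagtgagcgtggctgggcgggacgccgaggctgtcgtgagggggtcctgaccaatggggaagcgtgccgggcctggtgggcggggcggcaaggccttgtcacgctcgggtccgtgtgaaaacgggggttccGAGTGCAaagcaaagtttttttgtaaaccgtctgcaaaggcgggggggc
MT2A (chr16:56608334-56608583, plus strand) held 7 matches, MT1X (chr16:56682220-56682469, plus strand) 4 and SLC30A1 (chr1:211579162-211579411, minus strand) 1. The share with at least 1 match was 24.7% over all promoters and 33.6% over those of tested genes. It was 34.5% for all downregulated and 38.2% for all upregulated DEGs, and 4 of 6 promoters of tested genes on this list held a match. Only stretches with a match were printed.

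MT1E had 937 to 1101 (median 955) normalized counts in the control and 758 to 809.6 (median 792) with EGCG (log2 fold change -0.34, SE 0.039, adjusted p = 6.2e-08), and MT1X had 177 to 219.6 (median 191) and 136 to 166 (median 148) (log2 fold change -0.36, SE 0.072, adjusted p = 0.0019). MT2A, the metallothionein with the most reads, had 2703 to 3026 (median 2904) and 2207 to 2763 (median 2432) (log2 fold change -0.23, SE 0.035, adjusted p = 2.8e-05). The groups of MT1E and MT1X were apart, while those of MT2A overlapped. MT1F (-0.44, adjusted p = 0.19) and MT1G (-0.37, adjusted p = 0.60) had log2 fold changes of the same order from fewer reads and did not pass. Metallothionein genes are close copies, so their sum was taken over 9 genes, 3900.0 to 4378 in the control and 3172 to 3764 with EGCG, which did not overlap. SLC30A1 fell, with 459.6 to 529.9 (median 492) normalized counts in the control and 345 to 446 (median 356) with EGCG (log2 fold change -0.42, SE 0.065, adjusted p = 4.1e-05), and SLC39A10 rose, with 474 to 552 (median 500.5) normalized counts in the control and 539.7 to 681 (median 645) with EGCG with overlap (log2 fold change 0.30, SE 0.054, adjusted p = 0.00046). Of 22 tested iron-handling genes, 2 rose, the transferrin receptor TFRC (log2 fold change 0.11, SE 0.029, adjusted p = 0.036; the call was lost in 4 of 12 fits that left out 1 library, with 0.10 to 0.12) and ALAS1, the first enzyme of heme synthesis (log2 fold change 0.26, SE 0.047, adjusted p = 0.0006), and 0 fell. The ferritin genes FTH1 (-0.06) and FTL (-0.05) did not pass.

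Among 14 tested targets of BMP and TGF-β signaling, 4 fell and 0 rose (median log2 fold change -0.22). ID1, ID2 and ID3 encode inhibitors of helix-loop-helix transcription factors and are direct targets of BMP. ID2 had 64.9 to 79.6 (median 71.0) normalized counts in the control and 36.9 to 55.0 (median 43.7) with EGCG (log2 fold change -0.68, SE 0.099, adjusted p = 1.2e-05). ID3 had 616 to 680.2 (median 655) and 435 to 522 (median 482) (log2 fold change -0.44, SE 0.045, adjusted p = 2.9e-09), and ID1 had 816 to 905 (median 866) and 683 to 743 (median 700.4) (log2 fold change -0.29, SE 0.038, adjusted p = 8.6e-07). The 3 genes had non-overlapping groups. TGFBI, an abundant secreted matrix protein, fell, with 15090.2 to 16288 (median 15609.9) normalized counts in the control and 11925 to 12781 (median 12165) with EGCG (log2 fold change -0.35, SE 0.024, adjusted p = 2.2e-14). SMAD6, with 18.5 to 40.5 (median 22.1) and 4.31 to 20.4 (median 15.5) normalized counts, had a log2 fold change of -0.70 and did not pass (adjusted p = 0.14). CCN1 (-0.05) and CCN2 (0.09) did not pass either. ID3 is among the genes that the study names.

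Single genes of the aryl hydrocarbon receptor and of retinoid and vitamin D metabolism fell. Of 9 tested genes of the receptor list, 2 fell, CYP1A1 and CYP1B1, which oxidize polycyclic compounds. CYP1A1 had 152 to 193 (median 175) normalized counts in the control and 104 to 143 (median 127) with EGCG (log2 fold change -0.46, SE 0.079, adjusted p = 0.00026), and CYP1B1 fell similarly (log2 fold change -0.40, SE 0.046, adjusted p = 7.2e-08). AHR itself (0.04), TIPARP (-0.10) and NQO1 (-0.02) did not pass the test. In the retinoid list of 14, ALDH1A3, which makes retinoic acid, fell (log2 fold change -0.45, SE 0.042, adjusted p = 2.2e-10), as did the receptor gene RARG (log2 fold change -0.17, SE 0.050, adjusted p = 0.085), the latter losing its call in 9 of 12 fits that left out 1 library (log2 fold change -0.20 to -0.14). CYP24A1, which inactivates vitamin D, had 275 to 335 (median 313) and 228 to 270.1 (median 236) (log2 fold change -0.36, SE 0.059, adjusted p = 0.00011). The study names ALDH1A3 among the downregulated genes of EGCG, and CYP1B1 only among those of resveratrol and the combination.

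Other genes with large decreases were of varied function. KANK4, an adaptor of the cell cortex, had 56.2 to 80.3 (median 66.5) normalized counts in the control and 26.1 to 44.2 (median 32.7) with EGCG (log2 fold change -0.95, SE 0.14, adjusted p = 1.5e-05). MYO7B, an unconventional myosin, had 32.0 to 43.1 (median 35.8) and 13.5 to 27.7 (median 20.1) (log2 fold change -0.80, SE 0.16, adjusted p = 0.0019). KRT81, a hair keratin that overlaps KRT86 on the opposite strand, had 277 to 320.3 (median 296) and 166 to 215 (median 193) (log2 fold change -0.65, SE 0.058, adjusted p = 1.2e-10). These 3 genes had non-overlapping groups, and KRT81 is named by the study. TGFBR3L (log2 fold change -0.59, SE 0.16, adjusted p = 0.049) was low, at 24.5 to 32.6 (median 27.7) and 14.7 to 23.7 (median 18.5), and lost its call in 5 of 12 fits that left out 1 library (log2 fold change -0.66 to -0.54). The matrix metalloproteinase gene MMP3 fell (log2 fold change -0.52, SE 0.12, adjusted p = 0.012), while MMP1 (-0.15), MMP10 (-0.16) and MMP13 (-0.15) did not pass. COL1A1 fell with overlap, 1083 to 1328 (median 1155) in the control and 875 to 1092 (median 974) with EGCG (log2 fold change -0.27, SE 0.050, adjusted p = 0.00071). Of the other stromal markers, COL1A2 had 12.2 to 28.9 (median 18.3) and 13.5 to 19.4 (median 16.3) normalized counts, LUM had a mean of 5.00 in the control and 7.07 with EGCG, and COL3A1, DCN and PDGFRB did not exceed 1.22 in any library.

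Among the other large increases were the pentraxin PTX3, an innate immune recognition protein, with 12.2 to 24.7 (median 20.5) normalized counts in the control and 25.7 to 43.7 (median 35.0) with EGCG (log2 fold change 0.80, SE 0.17, adjusted p = 0.0062), and LOXL2, a lysyl oxidase that crosslinks collagen, with 82.6 to 136 (median 112) and 141 to 169 (median 158) (log2 fold change 0.45, SE 0.091, adjusted p = 0.0027). BTN3A1, a butyrophilin, rose, with 36.9 to 62.7 (median 55.8) normalized counts in the control and 64.1 to 80.1 (median 73.9) with EGCG (log2 fold change 0.44, SE 0.11, adjusted p = 0.023), and ING4, a chromatin reader, with 49.4 to 72.2 (median 61.5) and 73.3 to 86.2 (median 78.4) (log2 fold change 0.37, SE 0.093, adjusted p = 0.028). These 4 genes had groups that did not overlap. TMPRSS4, a membrane serine protease, was close to the limit (log2 fold change 0.41, SE 0.12, adjusted p = 0.090) and lost its call in 12 of 12 fits that left out 1 library, in which its log2 fold change was 0.36 to 0.44. BTN3A1 and ING4 lost theirs in 1 of 12 and 1 of 12 (0.34 to 0.49 and 0.32 to 0.43).

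TXNIP and ARRDC4, arrestin-domain proteins that restrain glucose uptake and whose genes are activated by MondoA, rose together. TXNIP had 1871 to 2131 (median 2010.1) normalized counts in the control and 2341 to 2534 (median 2403) with EGCG (log2 fold change 0.28, SE 0.029, adjusted p = 5e-09), and ARRDC4 had 319.8 to 388 (median 368) and 443 to 494 (median 473) (log2 fold change 0.40, SE 0.048, adjusted p = 1.8e-07). Both had non-overlapping groups, and ARRDC4 is named by the study. The other 8 tested members of this list of 10, ARRDC2 (0.05) and ARRDC3 (0.02) among them, did not pass.

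In the list of 30 ATF4 targets, the genes of amino acid stress, 10 rose and 1 fell, with a median log2 fold change of 0.08. The 10 included DDIT4, STC2 and VLDLR, which are also on the hypoxia list. CHAC1, which degrades glutathione, had 449.7 to 517 (median 502) normalized counts in the control and 569.6 to 630.2 (median 606) with EGCG (log2 fold change 0.28, SE 0.042, adjusted p = 2e-05), and TRIB3, a pseudokinase, had 744 to 816 (median 787) and 839.8 to 959 (median 889) (log2 fold change 0.20, SE 0.035, adjusted p = 0.00043). Both had groups that did not overlap. SESN2 (0.19), PSPH (0.19), CBS (0.19), ALDH1L2 (0.20) and MTHFD2 (0.10) completed the 10, the last 2 losing their calls in 2 of 12 and 9 of 12 fits that left out 1 library (0.18 to 0.22 and 0.09 to 0.11). The amino acid transporter SLC7A5 fell (log2 fold change -0.12, SE 0.032, adjusted p = 0.037) and lost its call in 3 of 12 (-0.14 to -0.08). ATF4 (0.07), ATF3 (0.09), DDIT3 (0.10), GDF15 (0.18) and ASNS (-0.07) did not pass.

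The list of cytokines and NF-κB targets had the highest median of the lists, 0.21 over 25 tested genes, of which 5 rose and 1 fell, and by replicate set this median came to 0.19 from replicates 1 to 3 against 0.11 from 4 to 6. TRAF1, an adaptor of TNF receptors, had 10.1 to 24.0 (median 12.4) normalized counts in the control and 16.8 to 29.6 (median 28.0) with EGCG (log2 fold change 0.83, SE 0.19, adjusted p = 0.010), and BIRC3, an inhibitor of apoptosis, had 86.4 to 120.0 (median 107) and 111 to 169.9 (median 148) (log2 fold change 0.46, SE 0.095, adjusted p = 0.0029). SAA1, an acute phase protein, had 15.2 to 30.5 (median 22.8) and 27.0 to 50.1 (median 37.5) (log2 fold change 0.74, SE 0.16, adjusted p = 0.0079), and it is named by the study. TNFAIP3 (0.19, adjusted p = 0.022) and NFKB2 (0.21, adjusted p = 0.022), which encode regulators of the pathway, rose by smaller log2 fold changes. All 5 genes had overlapping groups. IL24 fell (log2 fold change -0.36, SE 0.10, adjusted p = 0.057) and lost its call in 6 of 12 fits that left out 1 library (-0.39 to -0.33). The chemokine genes CXCL8 (0.35, adjusted p = 0.24) and CCL20 (0.66, adjusted p = 0.43) did not pass.

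Mitotic genes were lower by a small amount. All 36 tested members had a log2 fold change below 0, with a median of -0.09 and a range of -0.18 to -0.01, and 10 of 36 fell. PLK1, a kinase of mitotic entry, had 2036 to 2274 (median 2150.3) normalized counts in the control and 1871 to 2007 (median 1909) with EGCG (log2 fold change -0.15, SE 0.034, adjusted p = 0.0077), and CCNA2, cyclin A2, had 1279 to 1355 (median 1332) and 1157 to 1256 (median 1199) (log2 fold change -0.14, SE 0.038, adjusted p = 0.045). The groups of these genes were just apart. Of the 10 mitotic calls, 8 were lost in at least 1 of 12 fits that left out 1 library, from 2 fits for KIF23 to 9 for KIF11, and PLK1 and CCNB1 kept theirs. AURKA lost its call in 6 of 12, CCNA2 in 5 of 12, CDC20 and CENPF in 4 of 12 each, and KIF20A and TPX2 in 3 of 12 each. MKI67, the proliferation marker, did not pass (-0.13, adjusted p = 0.16). Genes of DNA replication had a median of 0.02, and 0 of 37 passed in either direction in edgeR, with 1 at an unadjusted p under 0.05 and 0 called by DESeq2.

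**Figure D3:**
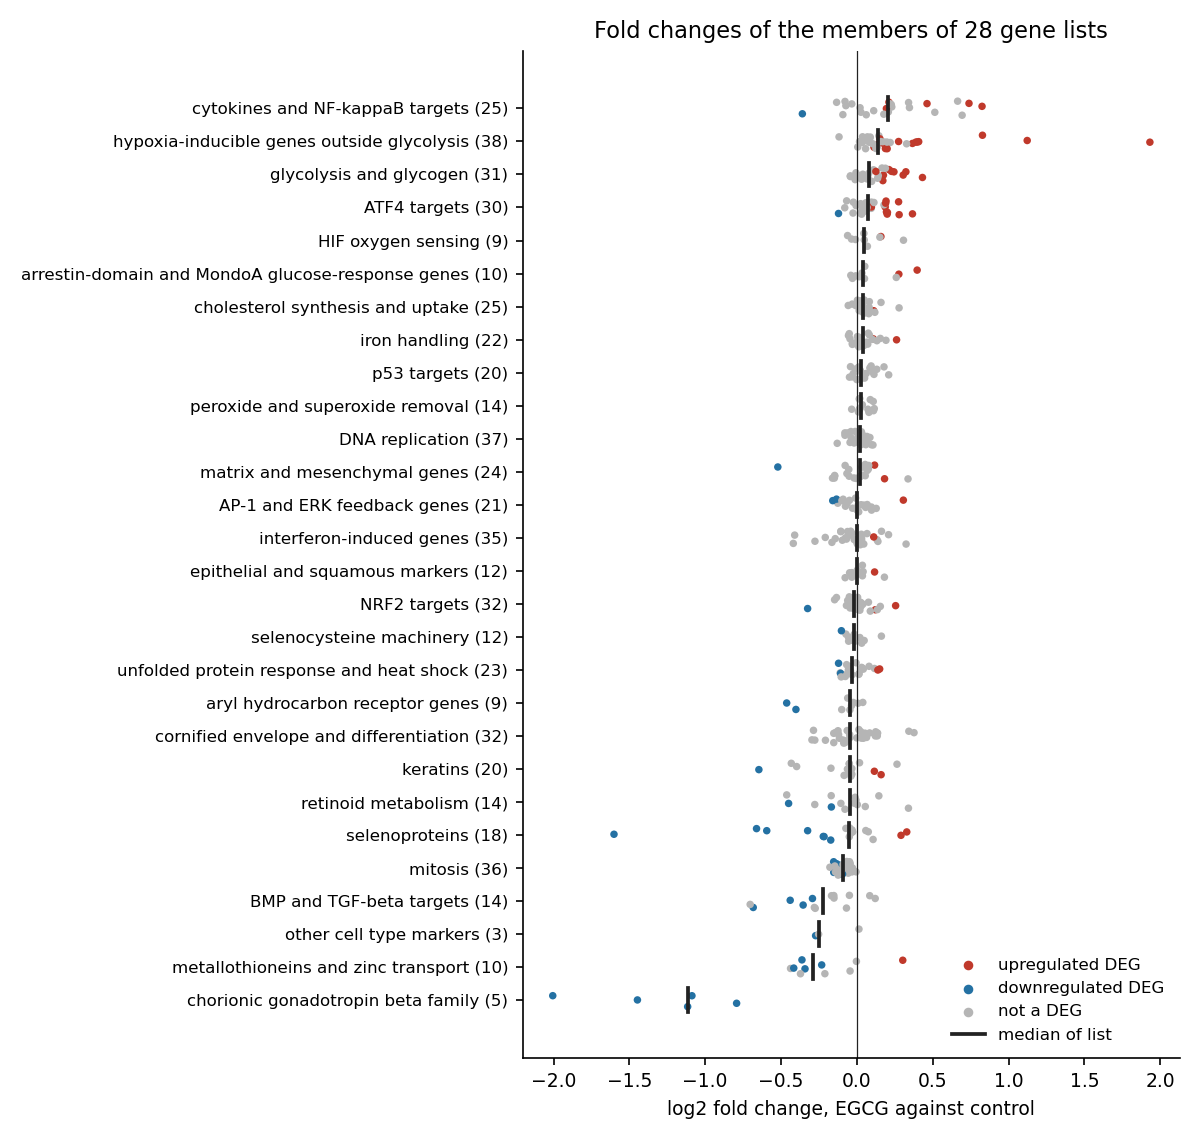
Log2 fold change with EGCG of each tested member of 28 gene lists (horizontal axis), one list per row with the number of tested members in brackets, ordered by the list's median (black bar). Red and blue points are DEGs, and the medians run from -1.12 for the chorionic gonadotropin beta family to 0.21 for cytokines and NF-κB targets.

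Other lists held few or no calls. Of 32 tested NRF2 targets, the antioxidant genes, 2 rose and 1 fell with a median of -0.02, the rises being GCLC (0.12, adjusted p = 0.060) and BLVRB (0.26, adjusted p = 0.022) and the fall being the selenoprotein TXNRD1. GCLC and BLVRB lost their calls in 7 of 12 and 2 of 12 fits that left out 1 library (0.10 to 0.14 and 0.21 to 0.29). HMOX1, heme oxygenase, had a log2 fold change of 0.15 (adjusted p = 0.81). None of 20 p53 targets (median 0.03) or of 32 cornified envelope genes (median -0.05) passed in edgeR, with 1 and 3 at an unadjusted p under 0.05 and 0 and 0 called by DESeq2. Interferon-induced genes had 1 rise in 35, LGALS3BP (0.11, adjusted p = 0.035, lost in 1 of 12 such fits, 0.10 to 0.12), and cholesterol genes 1 in 25, HMGCS1 (0.11, adjusted p = 0.021). In the list of 23 genes of the unfolded protein and heat shock responses, 2 rose, XBP1 (0.14, adjusted p = 0.021) and HERPUD1 (0.15, adjusted p = 0.029), and 2 fell, HSPH1 (-0.11, adjusted p = 0.028) and HSPA1A (-0.12, adjusted p = 0.039), and HERPUD1 and HSPA1A lost their calls in 1 of 12 fits each. Of 21 genes of AP-1 and ERK feedback, ETV5 rose (0.31, adjusted p = 0.0022) and JUNB (-0.13, adjusted p = 0.052, lost in 4 of 12 fits, -0.15 to -0.10) and IER3 (-0.16, adjusted p = 0.0100) fell. Of 20 tested keratins, 2 rose and 1 fell, with 4 above 0, 16 below 0 and a median of -0.05. The rises were the simple-epithelium keratins KRT8 (0.16, adjusted p = 0.00029) and KRT18 (0.12, adjusted p = 0.029), while KRT5 (-0.03) and KRT14 (-0.05) did not pass. Of 12 epithelial and squamous markers, 6 were above 0 and 6 below, and 1 rose, CDH1, E-cadherin (0.12, adjusted p = 0.0062).

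Each replicate set was then fitted separately, and its 3 EGCG libraries were compared with its 3 control libraries. The resveratrol and combination libraries of the set also entered the estimate of the spread. Replicates 1 to 3 alone gave 91 DEGs (0.588% of tested genes) and replicates 4 to 6 alone gave 85 (0.549%), and 39 genes were called in both. Of the 91, 88 changed in the same direction in replicates 4 to 6 and 72 did so with an unadjusted p under 0.05, where 7.53% of all tested genes had such a p in that set. Of the 85, 81 changed in the same direction in replicates 1 to 3 and 70 did so with an unadjusted p under 0.05, where 7.73% of all tested genes had one. The fold changes were smaller in the set that had not chosen the genes, with a median size of 0.35 against 0.20 for the 91 genes and of 0.32 against 0.26 for the 85. The 39 shared genes included BNIP3, P4HA1, NDRG1, PDK1, LDHA, SELENOW, SELENOH, GPX1, TXNRD1, CGB5, CGB8, KANK4, ID1, ID2, ID3, MT1E, MT2A and SLC30A1. A test of the difference between the sets called 0 of 15476 genes (0%) in edgeR, and 503 (3.25%) had an unadjusted p under 0.05. That test and the list medians by set came from 1 fit of all 24 libraries with a mean for each group in each set. Hypoxia-inducible genes had median log2 fold changes in replicates 1 to 3 and in replicates 4 to 6 of 0.17 and 0.18, glycolysis genes of 0.07 and 0.08, and BMP and TGF-β targets of -0.26 and -0.19, while ATF4 targets had 0.12 in replicates 1 to 3 and 0.04 in replicates 4 to 6.

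**Figure D4:**
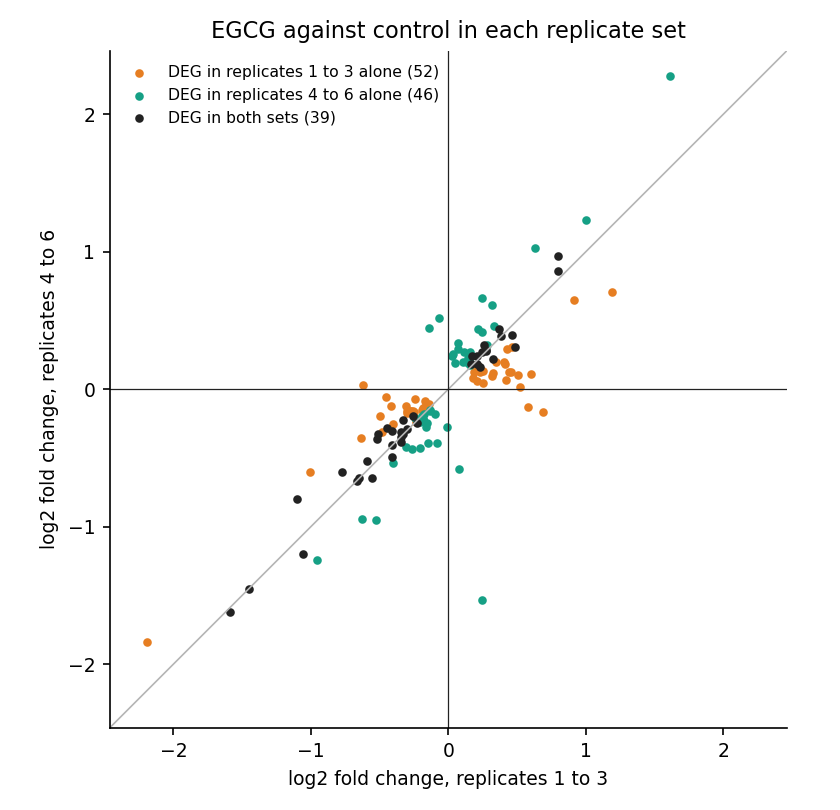
Log2 fold change with EGCG in replicates 1 to 3 (horizontal axis) and in replicates 4 to 6 (vertical axis) for each gene called in either set alone, with the diagonal in grey. The 39 genes called in both sets (black) lie near the diagonal, and 7 of the points called in 1 set lie in the quadrants of opposite sign.

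The same 342 genes were followed where EGCG was added beside resveratrol, in the combination against resveratrol alone, a comparison that shares no library with the one above. There, 306 of 342 changed in the same direction, 230 with an unadjusted p under 0.05, where 19.5% of all tested genes had such a p in either direction. As DEGs of that comparison, which called 1408 genes (9.10%), 190 of the 342 were called in the same direction and 6 in the opposite one. The median change in the direction seen with EGCG alone was 0.14, beside 0.20 in size for EGCG alone. Of the upregulated genes 159 of 172 kept the sign, and of the downregulated genes 147 of 170. BNIP3 rose by 0.73, P4HA1 by 0.31, NDRG1 by 0.39 and TXNIP by 0.36 on the log2 scale, and SELENOW (-1.45), SELENOH (-0.79), GPX1 (-0.62), TXNRD1 (-0.29) and KANK4 (-1.05) were lower. Other genes described above were not DEGs there. Among them were BNIP3L (0.16), GPI (0.07), MT2A (-0.07), MT1X (-0.09), CYP1B1 (-0.11) and CYP1A1 (0.23, the opposite direction). The hypoxia list had a median of 0.17 and the mitosis list of -0.18 there.

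The interaction, the difference between the effect of EGCG beside resveratrol and alone, was called for 79 genes (0.510%), of which 19 were among the 342. Those with the smallest p included CYP24A1, COL1A1, IER3 and AURKA. The first 3 fell with EGCG alone and rose beside resveratrol, CYP24A1 by -0.36 alone and 0.22 beside resveratrol (adjusted p of the interaction = 0.0001), COL1A1 by -0.27 and 0.19 (0.00017) and IER3 by -0.16 and 0.19 (0.0002), all on the log2 scale. AURKA, a mitotic kinase, fell by -0.10 alone and -0.36 beside resveratrol (0.00094). The fall of ALDH1A3 with EGCG alone stood beside a log2 fold change of 0.00 in the combination against resveratrol, and the mean level was 780.1 normalized counts in the control and 158 with resveratrol. CGB5 fell by -1.45 alone and -0.52 beside resveratrol (adjusted p of the interaction = 0.061). The interaction was also above 0 for CGB3 (1.39), CGB2 (0.55), CGB8 (0.48) and CGB7 (0.21) but was not called for them. The median of the CGB list was -1.12 alone and -0.58 beside resveratrol, and reads may be divided among these genes.

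**Figure D5:**
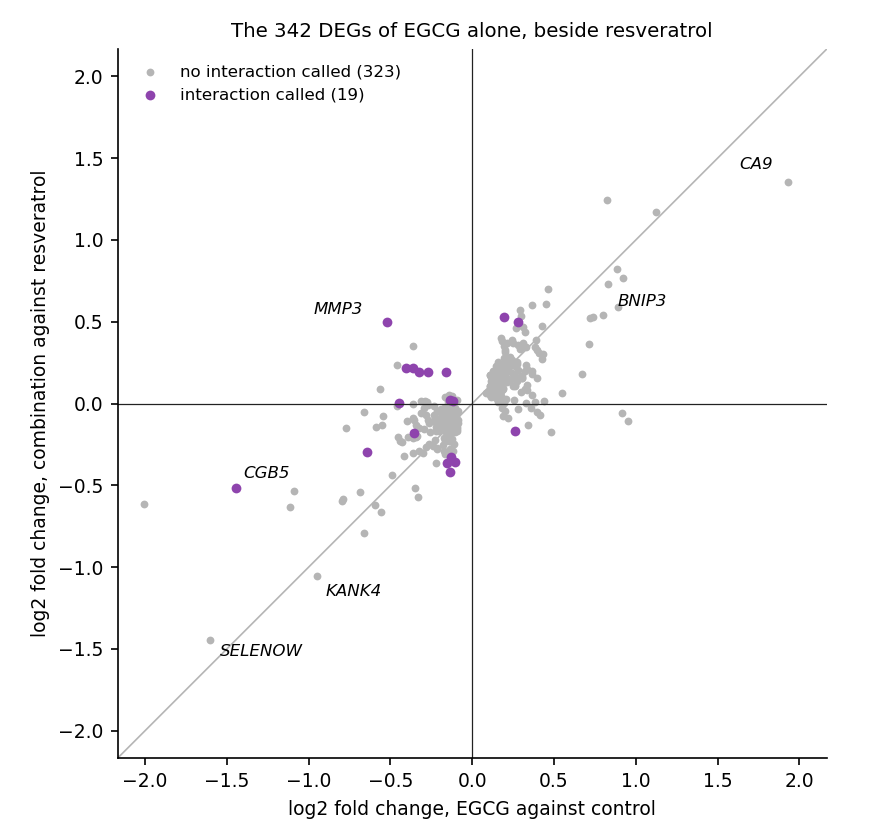
Log2 fold change of the 342 DEGs of EGCG alone (horizontal axis) and of the same genes in the combination against resveratrol (vertical axis), with the diagonal in grey. The 19 genes with a called interaction are purple, and 306 of the 342 points lie in the quadrants of equal sign.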

How the data were processed

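RNA from 6 libraries per group was measured as stranded, poly(A)-selected mRNA. According to the methods, the authors trimmed reads with Trimmomatic 0.36 and aligned them to GRCh38 with HISAT2 2.0.4. The counting program, annotation release and strand setting are not given in the sources used here. The authors deposited raw counts per gene, which were used for all tests. The levels printed here are the normalized counts that the authors also deposited, a signal value in which each library's raw counts are scaled by its size factor, with no filter on low values. FPKM values deposited by the authors were not used. Precision follows the total counts per library, 7034872 to 11735574 for the 12 libraries compared.

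The quasi-likelihood model of edgeR 4.0.16 (R 4.3.3) was fitted to raw counts from the 24 libraries (TMM scaling, filterByExpr) with group and replicate set as terms. All p-values were adjusted over 15476 genes by Benjamini-Hochberg. SE is that of the log2 fold change. The fit was tested on simulated data. Gene positions are from GENCODE 44 (60261 of 60617 identifiers matched) and may differ from the authors' annotation. Reads shared by near-identical or overlapping genes are of uncertain origin.

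The members and lists were chosen with earlier results of these data known. Named genes were the 12 largest rises and falls among DEGs with non-overlapping groups and a mean of at least 20 normalized counts, the 10 of each with the smallest p, list members, and the 5 DEGs with the smallest p for the interaction with resveratrol. No DEG passed for the interaction with replicate set. A gene that these rules named is not reported here and was left out of its list, but it counts in totals over all genes. SELENOTP1 was added after its value was seen. Alternatives were DESeq2 1.42.0 as test or scaling, library size alone, looser and stricter count filters, other limits on p, only the 12 libraries, no replicate set term, a replicate block, each library left out, and each replicate set alone.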

Additional observations from a re-analysis of the deposited data

Results flagged for a closer look

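Of 80 groups of 6 libraries tested for a library far from the others, 3 had one, and chance gives about 1 in 20. BNIP3P1 was at 141 normalized counts in EGCG replicate 5 and at 83.1 to 95.1 in the other 5 EGCG libraries. TMPRSS4 was at 79.7 in EGCG replicate 2, beside 66.5 to 71.1. TGFBI was at 12781 in EGCG replicate 4, beside 11925 to 12231.

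For the 18 DEGs of EGCG alone given here, the effect of EGCG differed beside resveratrol, as tested by the interaction in edgeR with the adjusted p under 0.1. The interaction is the log2 fold change of the combination against resveratrol minus that of EGCG against the control. It was above 0 for CYP24A1 0.58, COL1A1 0.46, IER3 0.35, ALDH1A3 0.45, TGFBI 0.17, MMP3 1.02, TNFAIP3 0.34, ANKRD1 0.62, KRT81 0.35, CLDN1 0.22, CGB5 0.93, TUBA4A 0.15 and PTHLH 0.13. It was below 0 for AURKA -0.25, KIF20A -0.28, PLK1 -0.21, FAM83D -0.19 and TTC26 -0.43. AURKA, KIF20A, PLK1 and FAM83D, which act in mitosis, fell with EGCG alone and were lower by more beside resveratrol, while TTC26 rose with EGCG alone (0.26, a call lost in 11 of 12 fits that left out 1 library) and had -0.17 beside resveratrol. TNFAIP3 and CLDN1 rose in both settings, more so beside resveratrol. MMP3 had -0.52 alone and 0.50 beside resveratrol, where resveratrol itself had lowered its mean from 57.1 to 20.1 normalized counts.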

How the results depend on the processing

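The number of DEGs with EGCG was 273 without the replicate set term, 402 with only the 12 libraries, 277 with DESeq2, 336 with its size factors, 355 with library size alone, and 238 to 353 when 1 library was left out. It was 91 from replicates 1 to 3 and 85 from replicates 4 to 6, fits of fewer samples, and an unadjusted p under 0.05 gave 1743. At 1.5-fold the number was 25 to 35 with 1 library left out, 18 and 19 in the replicate sets and 93 by the unadjusted p. The number of interaction genes was 41 without the replicate set term, 51 at an adjusted p under 0.05 and 69 with DESeq2. With the replicate number as a replicate block, EGCG gave 370 DEGs and the interaction 85 genes. Deviations of same-numbered EGCG and control libraries had correlations of -0.042 to 0.053. Of the 12 libraries, 4 correlated best with the library of their own number in the other group. Whether equal numbers mark pairs is not given in the labels. These correlations cannot decide it, since each deviation was taken from a mean of only 3 libraries. None of the 115 named DEGs changed sign under any alternative that gave a value. The alternatives reuse libraries from which these DEGs were chosen, and other limits on p leave the fold change as it was. Of them, 106 stayed DEGs with DESeq2, 102 at an adjusted p under 0.05 and 82 whichever library was left out, but 52 and 51 in the replicate sets alone.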

Other observations

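Further DEGs are named here after their values were seen. They are single genes, and the other members of their families are not described. Some were close to the limit on the adjusted p, among them SRSF2 (0.072), SRSF7 (0.052), CCT6A (0.060) and IL1R2 (0.076). The splicing factors SRSF2, SRSF6 and SRSF7 fell by small amounts (-0.10, -0.13 and -0.10 on the log2 scale). The ribosome biogenesis factors NOP56 and BRIX1 had -0.11 and -0.16, and the chaperonin subunits CCT4 and CCT6A both had -0.09. UCA1, a long noncoding RNA of epithelial cancers, fell (-0.49), as did the homeobox gene HOXC13 (-0.29) and OVOL1, an epithelial transcription factor (-0.46). The interleukin receptor genes IL1R2 (0.37), IL4R (0.18) and OSMR (0.20) rose, and IL7R fell (-0.29). HBEGF, a ligand of the EGF receptor, rose (0.27), and so did LRIG1, an inhibitor of that receptor (0.25).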
